A study of Homo sapiens with 6 samples.

Results

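The positions of 7 genes of the senescence secretory programme were compared with 4 lists of chromatin domains from cultured IMR90 cells, a human fetal lung fibroblast line. The loci were IL6, CXCL8, CXCL1, IL1A, IL1B, MMP1 and MMP3, taken by name with coordinates in GRCh37/hg19. They are 7 of the 20056 protein-coding genes in the RefSeq table used for names, and they were set against the 2118 domains of the 4 lists. The first 2 lists came from immunoprecipitates of lamin B1, a filament protein under the inner nuclear membrane, and the other two from immunoprecipitates of LC3, the lipid-coupled protein of autophagosomes. The groups were lamin B1 replicates 1 and 2, LC3 replicates 1 and 2, and input chromatin replicates 1 and 2, all from untreated cells kept at 3% oxygen. Input chromatin was not analysed here. Only this one state was sampled. The lists hold no marker of proliferation or senescence and no expression value. The labels call the cells only untreated, so whether they were proliferating was not shown. The labels do not say whether replicates were separate cultures. Differences between replicates may therefore be technical.

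Senescent cells stop dividing and release a mixture of cytokines, chemokines and matrix-degrading enzymes. Interleukin-1 alpha on the cell surface is an early signal of this programme and acts through NF-kappa B and C/EBP beta, which induce IL6 and CXCL8. Lamin B1 marks lamina-associated domains, long stretches of mostly silent chromatin at the nuclear periphery, and its loss is a common mark of senescent fibroblasts. In growing fibroblasts the secretory genes are expressed at low levels, and the question here was where they lay relative to the lamina and to LC3 in untreated cells.

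The 7 loci formed 4 regions, so they were not 7 separate positions. IL6, a cytokine of inflammation and the acute-phase response, lay alone on chromosome 7 from 22.767 to 22.772 Mb. CXCL8 (interleukin-8) and CXCL1, both chemokines that attract neutrophils, lay on chromosome 4 at 74.606 to 74.609 Mb and 74.735 to 74.737 Mb, 126 kb apart. IL1A and IL1B, which encode the alpha and beta forms of interleukin-1, lay on chromosome 2 at 113.531 to 113.543 Mb and 113.587 to 113.594 Mb, 44 kb apart. MMP1, an interstitial collagenase, and MMP3, stromelysin-1, which cleaves a broad set of matrix proteins, lay on chromosome 11 at 102.661 to 102.669 Mb and 102.707 to 102.714 Mb, 38 kb apart. By gene order in RefSeq, CXCL8 and CXCL1 belong to a run of 9 chemokine genes, from CXCL8 through CXCL6, PF4V1, CXCL1, PF4, PPBP, CXCL5 and CXCL3 to CXCL2. IL1A and IL1B open a run of 9 interleukin-1 family genes that ends with IL1RN, the receptor antagonist. MMP1 and MMP3 follow one another in a run of 9 metalloproteinase genes from MMP7 to MMP13. No other protein-coding gene lay within any of these 3 runs. The annotation used for names is of another build, so genes outside the 7 loci were not placed on the domains.

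Promoter sequences are shown to set the letters of 3 genes beside their positions on the domains. The RefSeq promoter set used here (GRCh38.p14) covered 5 of the 7 genes (IL6, CXCL8, CXCL1, IL1A and IL1B). It had no entry for MMP1 and MMP3. The 250 bases before the annotated start are printed for IL6, which lay outside every list but close to an LC3 domain in both replicates, and for CXCL8 and CXCL1, the only loci inside both LC3 lists. The IL6 stretch is chr7:22726950-22727199, CXCL8 is chr4:73740319-73740568 and CXCL1 is chr4:73869143-73869392, all on the plus strand of GRCh38.p14. Capitals mark matches on either strand to the kappa B-type pattern GGNNTTTCC, the AP-1 pattern TGANTCA or the TATA box pattern TATAAA.
IL6: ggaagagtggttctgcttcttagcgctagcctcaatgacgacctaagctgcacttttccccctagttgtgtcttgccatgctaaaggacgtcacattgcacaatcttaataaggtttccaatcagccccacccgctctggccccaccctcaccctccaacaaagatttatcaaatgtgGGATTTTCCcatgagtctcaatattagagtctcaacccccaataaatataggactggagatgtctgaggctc
CXCL8: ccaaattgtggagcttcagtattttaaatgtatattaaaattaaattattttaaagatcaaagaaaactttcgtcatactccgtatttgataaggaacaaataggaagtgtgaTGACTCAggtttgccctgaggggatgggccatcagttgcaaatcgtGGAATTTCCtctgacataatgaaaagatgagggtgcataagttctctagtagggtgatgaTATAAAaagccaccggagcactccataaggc
CXCL1: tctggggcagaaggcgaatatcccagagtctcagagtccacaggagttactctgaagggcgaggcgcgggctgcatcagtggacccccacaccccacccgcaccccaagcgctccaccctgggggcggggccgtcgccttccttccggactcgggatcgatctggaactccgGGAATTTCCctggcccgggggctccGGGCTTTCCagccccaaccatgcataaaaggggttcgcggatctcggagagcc
The IL6 stretch held 1 kappa B-type match, at bases 72 to 64 before the start. CXCL8 held 1 at bases 91 to 83, an AP-1 match at bases 137 to 131 and a TATA box at bases 31 to 26. CXCL1 held 2 kappa B-type matches, at bases 78 to 70 and 53 to 45. The kappa B-type pattern occurs in 5.48% of the 35114 promoters of the table, the AP-1 pattern in 6.57% and the TATA box in 10.7%. IL1A, on the minus strand, had an AP-1 match at bases 12 to 6 and a TATA box at bases 239 to 234 before its first listed start. Before its second listed start it had AP-1 matches at bases 105 to 99, which is the same site, and at bases 55 to 49, whereas IL1B had no match to any of the 3 patterns in its window. CXCL8 and CXCL1 shared a domain but not base composition. GC content was 37.6% with 4 CpG for CXCL8 and 65.6% with 18 CpG for CXCL1, against medians of 58.0% and 11 CpG over the table. IL6 had 47.6% GC and 4 CpG, IL1B 40.0% and 1 CpG, and IL1A 37.6% and 7 CpG at its first start. Matches of this kind describe letters and show no binding.

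None of the 7 loci lay inside both lamin B1 lists, and 2 of them, CXCL8 and CXCL1, lay inside both LC3 lists. A locus was counted as inside when all of its bases fell in a domain. The remaining loci were IL6, IL1A, MMP1 and MMP3, outside all 4 lists, and IL1B, inside LC3 replicate 1 only. Over all 1-kb positions between the first and last domain of each chromosome, 46.0% lay inside both lamin B1 lists and 46.3% inside both LC3 lists. All 4 lists held 36.6% of positions and 0 of the 7 loci, while 38.7% of positions and 4 of the 7 loci were outside all 4. On the host chromosomes 2, 4, 7 and 11, both lamin B1 lists held 49.5%, 61.8%, 45.2% and 51.9% of positions. Both LC3 lists held 56.3%, 68.4%, 51.9% and 54.6% there. On the same chromosomes, 34.9%, 18.6%, 34.8% and 34.5% of positions were outside all 4 lists. These positions include gene-poor sequence and assembly gaps, and the share for genes was not determined here. List by list, lamin B1 replicate 1 held 0 of the loci, lamin B1 replicate 2 held 2 (CXCL8 and CXCL1), LC3 replicate 1 held 3 (CXCL8, CXCL1 and IL1B) and LC3 replicate 2 held 2. The 0 for lamin B1 rests on its replicate 1, since replicate 2 alone gives 2. With 7 loci in 4 regions picked by name, and with earlier results of these lists known, the counts are descriptive.

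**Figure D1:**
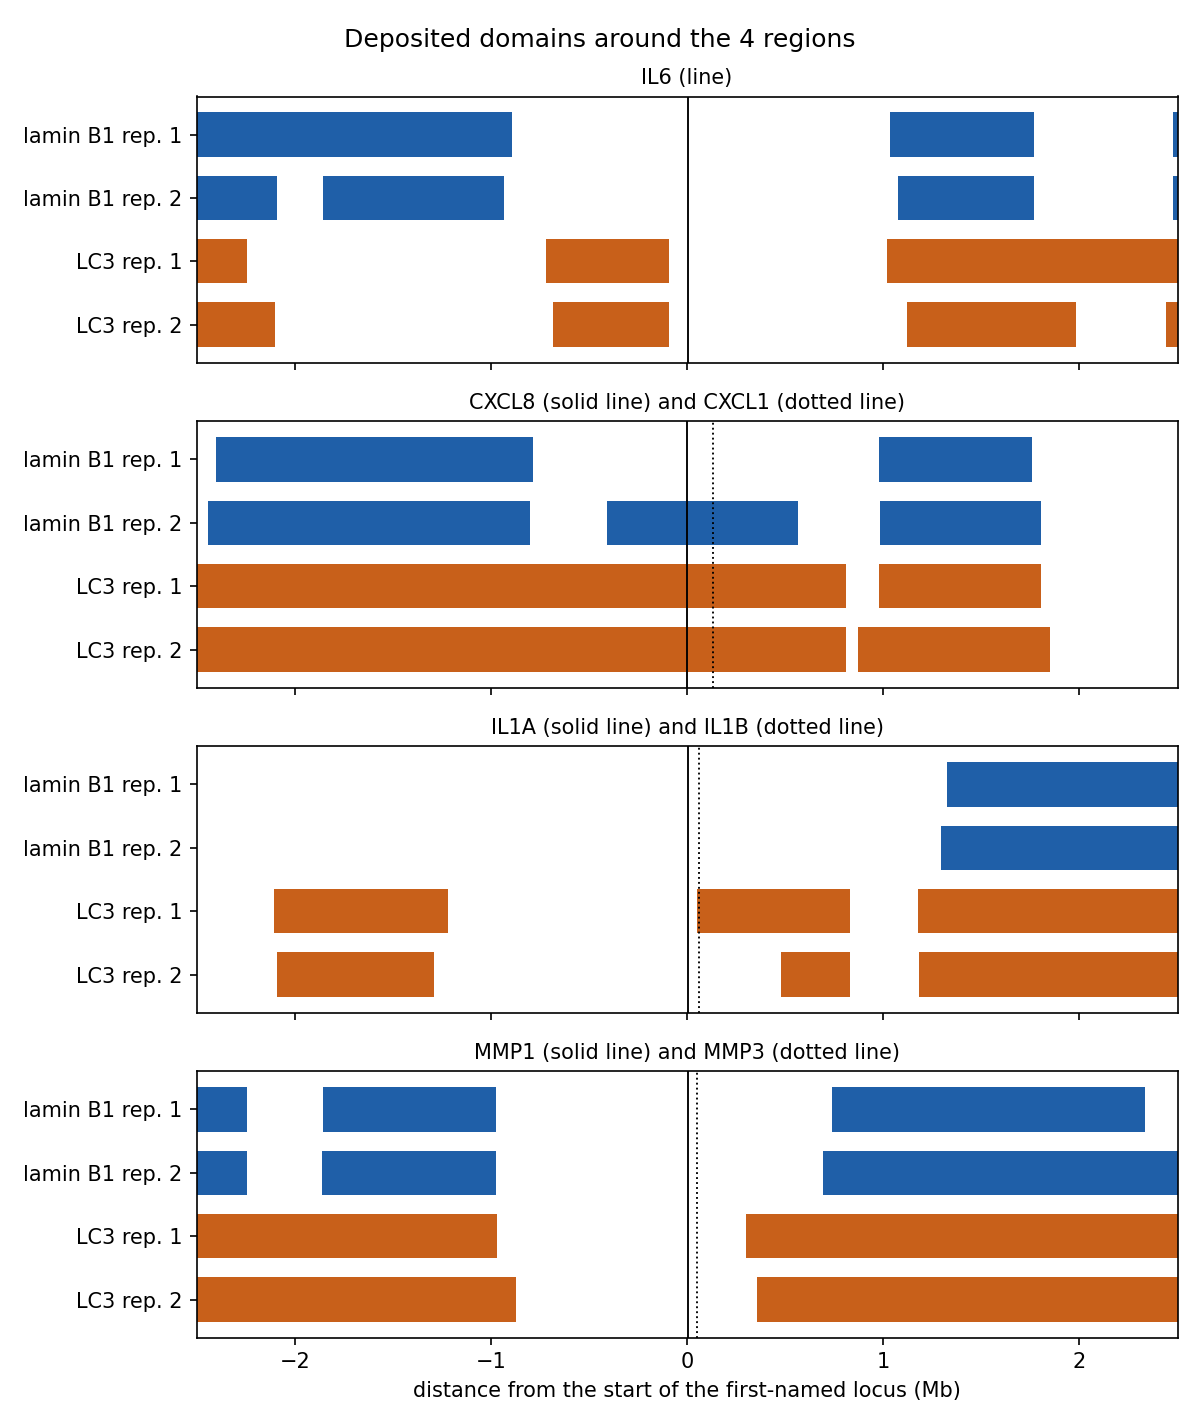
Domains of the 4 lists (bars, blue for lamin B1, orange for LC3) within 2.5 Mb of each region, on an axis of distance in Mb from the start of the first-named locus; black lines mark loci. CXCL8 and CXCL1 sit in an LC3 domain that both replicates list and in a lamin B1 domain of replicate 2 only, IL6 sits 92 to 93 kb beyond an LC3 domain, IL1B sits at the rim of an LC3 domain of replicate 1, and the MMP genes sit in a gap of all 4 lists.

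The chemokine pair lay well within an LC3 domain whose limits were nearly identical in the 2 replicates. This host domain ran from 72045001 to 75415000 on chromosome 4 in LC3 replicate 1 (3.37 Mb) and from 72048001 to 75414000 in replicate 2 (3.366 Mb). It was longer than 76.0% and 78.5% of the domains in the respective lists. CXCL8 lay 806 and 805 kb inside its nearest edge and CXCL1 678 and 677 kb inside. Between replicates its start differed by 3 kb and its end by 1 kb, within the 5-kb and 3-kb bins inferred from the coordinates of the lists.

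The lamin B1 replicates disagreed over the same chemokine locus. Replicate 1 had no domain there: CXCL8 was 785 kb and CXCL1 848 kb from its nearest domain, in a gap of 1.764 Mb. Replicate 2 listed a domain from 74200001 to 75172000 (0.972 Mb) that held both genes, CXCL8 at 406 kb and CXCL1 at 435 kb from its edge. That domain shared 0 bases with replicate 1, as did 23 of the 593 domains of replicate 2 (3.88%). The share of domains with no base in the other replicate was 8.48% for lamin B1 replicate 1. For LC3 replicates 1 and 2 it was 6.18% and 16.4%. The flanking lamin B1 domains were present in both replicates, with ends at 73821000 and 73804000 before the genes and starts at 75585001 and 75592001 after them. LC3 replicate 1 also had a domain that started at 75585001. The LC3 host domain therefore took in a whole flanking lamin B1 domain, of 1.617 Mb in replicate 1 or 1.64 Mb in replicate 2, plus sequence toward the genes. For lamin B1 replicate 2, that sequence included the whole domain of 0.972 Mb. Lamin B1 replicate 1 covered 48.0% of the LC3 host domain of either replicate, and lamin B1 replicate 2 covered 77.5% and 77.6%. Genome-wide, 3.38% of positions were in both LC3 lists and in a single lamin B1 list, as this pair was. On chromosome 4 the share was 4.18%, and 61.8% of positions there were inside both lamin B1 lists and 68.4% inside both LC3 lists. The depth behind the lists is unknown, so absence of the locus from lamin B1 replicate 1 does not show absence of the protein.

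IL6 lay outside every list but next to an LC3 domain that lamin B1 lacked. The distance from IL6 to this domain was 92 kb in LC3 replicate 1 and 93 kb in replicate 2, and 5.37% and 6.36% of the positions outside the respective list were nearer to an edge. The domain ran from 22050001 to 22675000 (0.625 Mb) in replicate 1 and from 22086001 to 22674000 (0.588 Mb) in replicate 2, so its end on the IL6 side differed by 1 kb. Neither lamin B1 list shared a base with it. The nearest lamin B1 edge was 894 kb away in replicate 1 and 931 kb away in replicate 2, on the same side of the gene, with 51.8% and 51.7% of the positions outside those lists nearer to an edge. IL6 thus sat within a lamin B1 gap of 1.929 Mb (replicate 1) or 2.004 Mb (replicate 2), and LC3 domains filled 29.3% to 33.9% of that gap. On the other side of IL6, domains of both antibodies began at similar places, at 23802001 and 23840001 in the lamin B1 lists, compared with 23785001 and 23889001 in the LC3 lists. The nearest coding genes by order were STEAP1B before and TOMM7 after IL6.

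IL1A and IL1B had the largest distance to lamin B1 of the 7 loci. IL1A was 1315 kb from the nearest domain of lamin B1 replicate 1 and 1281 kb from that of replicate 2. For IL1B the values were 1264 and 1230 kb. Of the positions outside the respective lists, 63.9% and 61.4% were nearer to a lamin B1 edge than IL1A was. Both genes shared a gap without lamin B1 of 5.955 Mb in replicate 1 and 5.916 Mb in replicate 2, longer than 92.5% and 90.9% of the gaps in those lists. Inside this gap each LC3 list had 4 domains or parts of domains, with 22.3% to 31.7% of the gap covered.

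One LC3 domain in that gap ended at the same base in both replicates but began at different places, and IL1B lay between the starts. In LC3 replicate 1 the domain ran from 113580001 to 114360000 (0.78 Mb), with IL1B 7 kb inside its start and IL1A 37 kb outside it. In replicate 2 it ran from 114009001 to 114360000 (0.351 Mb), which left IL1B 415 kb and IL1A 466 kb outside. The 2 starts were 429 kb apart, farther than the nearest matching edge of replicate 2 was for 81.7% of the edges of replicate 1. The margin of 7 kb is little more than the 5-kb bin inferred for that list. Lamin B1 covered 0% of this domain in either replicate. Of all positions, 2.93% were outside both lamin B1 lists and in a single LC3 list, as IL1B was. When each locus was widened by 50 kb on each side, IL1A was no longer free of all 4 lists and 3 loci were.

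MMP1 and MMP3 lay in a gap of all 4 lists, nearer to LC3 than to lamin B1. The gap spanned 1.71 and 1.668 Mb in the lamin B1 lists but 1.27 and 1.233 Mb in the LC3 lists. Its left border was nearly common to the lists, with domains ending at 101688000 in both lamin B1 lists, at 101690000 in LC3 replicate 1 and at 101787000 in LC3 replicate 2. Its right border was not. LC3 domains began at 102960001 and 103020001, and lamin B1 domains at 103398001 and 103356001. MMP1 was 291 and 351 kb from LC3 and 729 and 687 kb from lamin B1. Of the positions outside the respective lists, 16.3% and 22.2% were nearer to an LC3 edge than MMP1, and 45.4% and 42.3% nearer to a lamin B1 edge. MMP3, the gene on the side of that border, was 246 and 306 kb from LC3 and 684 and 642 kb from lamin B1. The LC3 domains to the right were 4.175 and 4.335 Mb long, and lamin B1 covered 75.6% to 90.5% of them.

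At each of the 7 loci both LC3 lists placed the gene nearer to, or deeper inside, a domain than either lamin B1 list did. Distances were given a sign, positive inside a domain and negative outside. The mean signed distance of IL6 was −912.5 ± 26.2 kb for lamin B1 and −92.5 ± 0.71 kb for LC3 (SD, n = 2 each), a difference of 820 kb. CXCL8 had −189.5 ± 842 kb for lamin B1, a mean of 1 value outside and 1 inside, and 805.5 ± 0.71 kb for LC3 (SD, n = 2 each). For IL1B the means were −1247 ± 24.0 kb and −204 ± 298 kb (SD, n = 2 each). MMP1 had −708 ± 29.7 kb and −321 ± 42.4 kb (SD, n = 2 each), and MMP3 differed between the antibodies by the same 387 kb. The differences were 995 kb at CXCL8, 884 kb at CXCL1, 1046.5 kb at IL1A and 1043 kb at IL1B. Values of the 2 antibodies did not overlap at any of the 7 loci, and exact permutation (two-sided, 4 lists) returned p = 0.333 at each, the smallest value that 2 lists against 2 allow. No adjustment over the 7 loci can lower it. Both LC3 values exceeded both lamin B1 values at 38.8% of all positions, and at 46.1%, 46.3%, 56.8% and 36.7% of positions on chromosomes 2, 4, 7 and 11. The share with the reverse order was not computed. The lists also differed in make-up. LC3 replicates 1 and 2 had 437 and 475 domains, with median lengths of 1.695 and 1.407 Mb. Lamin B1 replicates 1 and 2 had 613 and 593, with medians of 1.146 and 1.152 Mb. Whether this shaped the distances was not tested. The 7 loci stand for only 4 regions, and no test compared them with these shares.

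**Figure D2:**
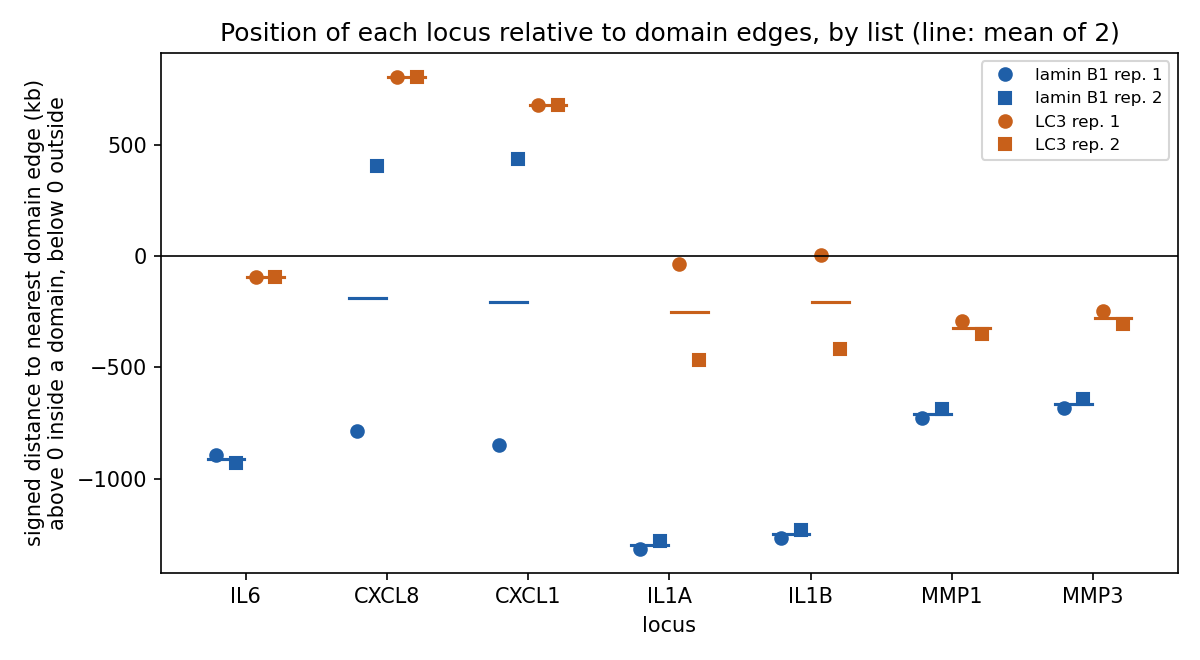
Signed distance in kb from each locus to the nearest domain edge (y axis; above 0 inside a domain, below 0 outside) for the 7 loci (x axis), with circles for replicate 1, squares for replicate 2 and short lines for the mean of 2 lists. LC3 points (orange) lie above lamin B1 points (blue) at all 7 loci, from 806 kb inside for CXCL8 down to 466 kb outside for IL1A.

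No stretch held by all 4 lists contained a locus, and the nearest such stretch was at least 684 kb away. For MMP3 and MMP1 it began at 103398001, 684 and 729 kb away, and was 1.599 Mb long. CXCL8 was 802 kb from a shared stretch of 1.6 Mb on its left and CXCL1 855 kb from one of 0.77 Mb on its right. IL6 was 1117 kb from a shared stretch of 0.647 Mb. IL1A and IL1B were 1315 and 1264 kb from one of 5.058 Mb. Each locus thus had sequence common to both antibodies within 1.315 Mb.

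The surroundings of the loci held more LC3 than lamin B1 within 1 Mb on each side. Around IL6, 5.29% and 3.44% of this window lay in lamin B1 domains of replicates 1 and 2, and 31.2% and 29.3% in LC3 domains. Around CXCL8, the lamin B1 values of 11.9% and 59.3% differed far more than the LC3 values of 91.5% and 96.9%. Around IL1B, lamin B1 had 0% in both replicates and LC3 38.9% and 17.5%. Around MMP1, lamin B1 had 14.8% and 16.9% and LC3 36.8% and 38.6%. Both LC3 values exceeded both lamin B1 values at 7 of 7 loci at this width (exact two-sided permutation p = 0.333 at each), a pattern that 25.5% of all 1-kb positions showed. At 500 kb on each side 7 of 7 loci and 18.1% of positions showed it, at 2.5 Mb 6 of 7 loci and 35.7% of positions, and at 250 kb 1 of 7 loci, IL6, and 12.7% of positions. The 7 loci stand for 4 regions here too, and their windows overlap within a region. At 250 kb MMP1 had 0% in all 4 lists. CXCL8 and CXCL1 had 100% there in both LC3 lists and also in lamin B1 replicate 2. At 2.5 Mb the antibodies no longer separated around IL6, with 47.3% and 41.1% in lamin B1 domains compared with 47.4% and 38.2% in LC3 domains.

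**Figure D3:**
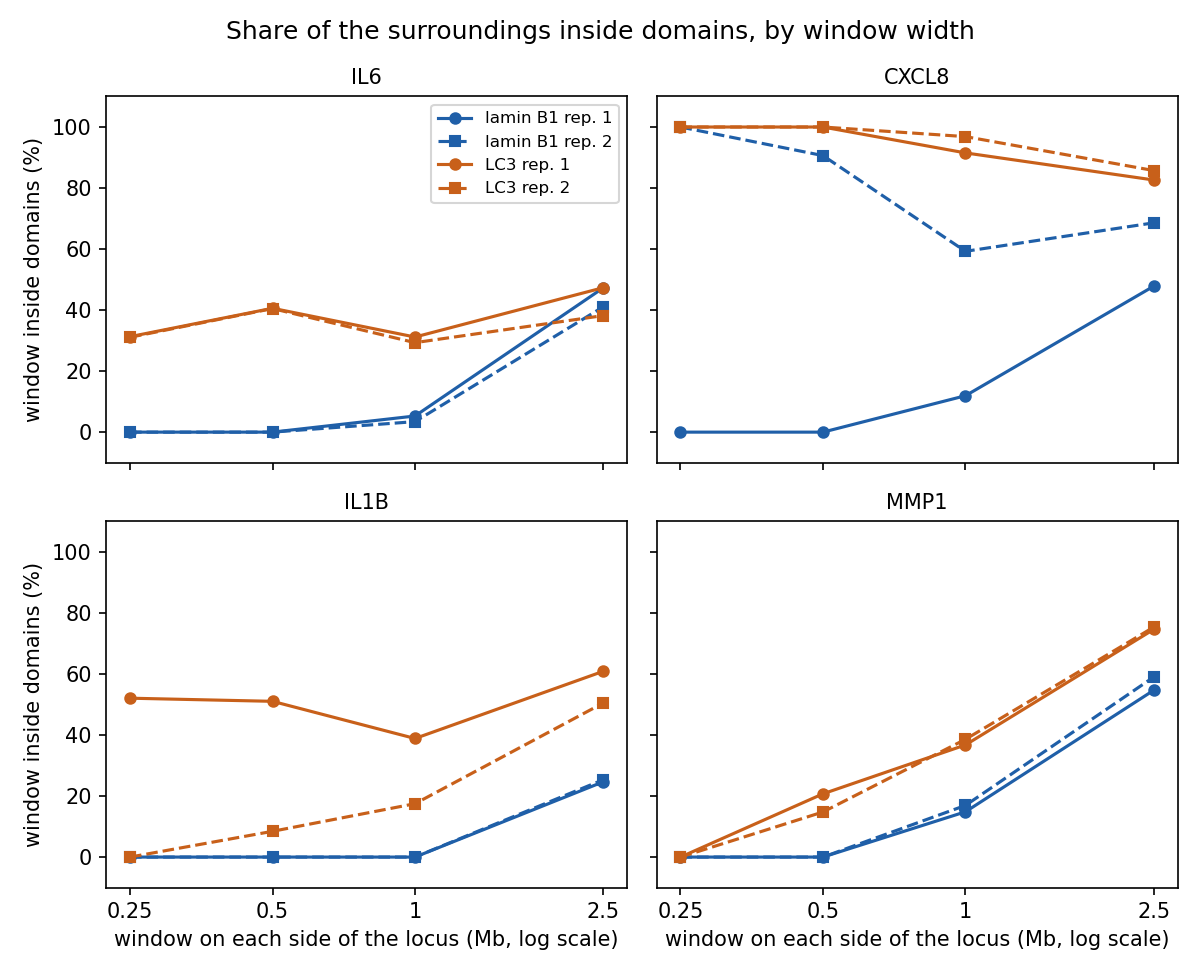
Percent of the window around IL6, CXCL8, IL1B and MMP1 that lay in domains (y axis) against the width of the window on each side in Mb (x axis, log scale), with one line per list, solid for replicate 1 and dashed for replicate 2. The lists of the 2 antibodies converge around IL6 at 2.5 Mb, and around CXCL8 the lamin B1 replicates stand apart at each width drawn.

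The edges beside the loci were set against replicate differences of all edges. The distance from an edge to the nearest edge of the same side in the other replicate had a median of 18 and 15 kb in the lamin B1 lists and 33 and 42 kb in the LC3 lists. Lamin B1 edges beside IL6, IL1A, IL1B, MMP1 and MMP3 differed by 0 to 42 kb between replicates. The edges of the chemokine domain of lamin B1 replicate 2 had no counterpart within 1190 kb. LC3 edges differed by 1 and 104 kb beside IL6, by 97 and 60 kb beside the MMP genes and by 71 and 429 kb around IL1A. To the right of MMP1 and MMP3, LC3 domains began 336 to 438 kb before lamin B1 domains, which was larger than the replicate differences of 42 and 60 kb at the same border.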

How the data were processed

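Chromatin immunoprecipitation with sequencing was done in IMR90 cells. Per the labels' protocols, cells were fixed with 1% formaldehyde for 5 min, and chromatin was sheared to about 250 bp. The tools listed per the submitters' processing notes were Bowtie2, bedtools and bcl2fastq 2.16.0.10, with build GRCh37/hg19. The authors deposited a 3-column list (chromosome, start, end) for each precipitated replicate, named for EDD, a caller of broad domains. For its version and settings, nothing is given in the sources used here. The lists hold no score or read number, so depth is unknown and no counting interval can be given. Bin sizes are not stated and were inferred as the largest step that divides all domain coordinates of a list. They were 3 and 4 kb for lamin B1 and 5 and 3 kb for LC3.

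Locus coordinates came with the list of genes, rounded to 1 kb, and the members, gene lists and patterns were chosen with earlier results of these data known. Named genes were the 7 loci, plus neighbours by order in RefSeq. Placement, signed distance, windows of 1 Mb on each side and the share of all 1-kb positions were computed with Python 3.11.15 and NumPy 2.4.6. Antibodies were compared by exact permutation of 2 lists against 2. Alternatives were the union of replicates, merging of domains under 100 kb apart, a minimum length of 500 kb, loci widened by 50 kb, any-base overlap, other windows and omission of each list. The code was tested on 500 simulated lists, with 100% right placements and distances. A list of further secretory genes could not be placed, since the annotation used here is of another build, and no such counts are given.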

Additional observations from a re-analysis of the deposited data

How the results depend on the processing

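Counts of loci kept within 1.5 times of their value in 28 of 33 alternatives. The 5 exceptions concern CXCL8 and CXCL1. With the union of replicates, 2 loci lay in at least 1 lamin B1 list, compared with 0 in both. The same 2 lay in at least 1 list of each antibody, compared with 0 in all 4 lists. With each list left out in turn, loci inside lamin B1 numbered 0 to 2 and loci inside all remaining lists 0 to 2. In either case the 2 arose without lamin B1 replicate 1. Under the replicate block (same-numbered lists only), 1 locus on average was inside both (0 in pair 1 and 2 in pair 2). On average 4.5 loci were outside both. Loci inside LC3 numbered 2 to 3 and loci outside all lists 3 to 5. The difference of signed distance kept its direction in 49 of 49 alternatives, from 242.5 kb (CXCL1 without lamin B1 replicate 1) to 1590.5 kb (CXCL8 without lamin B1 replicate 2). Most of these alternatives could not reverse it. Both LC3 values exceeded both lamin B1 values at each locus, so omission of 1 list kept the direction, and the block leaves the mean difference unchanged. Only merging and the minimum length could have changed the direction. The mean signed distance to lamin B1 ranged with 1 list left out from −785 to 406 kb for CXCL8 and from −848 to 435 kb for CXCL1, positive without lamin B1 replicate 1, and that to LC3 from −415 to 7 kb for IL1B, positive without LC3 replicate 2. With domains under 100 kb apart merged, the mean signed distance to LC3 went from 805.5 to 1327.5 kb for CXCL8 and from 677.5 to 1199.5 kb for CXCL1, and with a minimum length of 500 kb from −251.5 to −604 kb for IL1A and from −204 to −556.5 kb for IL1B. For the window difference, LC3 minus lamin B1, only other widths could change the direction. At 1 Mb both LC3 values exceeded both lamin B1 values at each locus, and the block leaves means as they are. The window difference was −1.43 percentage points for IL6 at 2.5 Mb on each side and 0 for MMP1 at 250 kb. It kept its direction in the other 54 of 56 alternatives. The cause of these changes was not tested.

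The labels do not say whether replicate numbers pair the lists. Over 1-kb positions, replicate 1 minus replicate 2 correlated between antibodies at r = 0.077. A correlation of domain calls cannot decide the pairing, since it does not show what same-numbered samples shared. The block leaves mean differences as they are by construction. The union was not run for loci outside all lists, which already uses it. A stricter domain score was not run, since the lists have none. Unknown depth limits what absence from a list can show, and 2 lists against 2 cannot give an exact p below 0.333.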
